A study of Mus musculus with 75 samples.

Results

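The genes described here are the 9 mouse genes H2-Aa, H2-Ab1, H2-Eb1, H2-DMa, H2-DMb1, H2-Oa, H2-Ob, Cd74 and Ciita, which build, load or switch on MHC class II. They were chosen by name, without use of their values, and are 9 of 20680 genes in the table of tissues and 9 of 16954 genes in the table of parabionts. All 9 were found in both tables. RNA was sequenced from 11 tissues of wild-type (labelled WT) C57BL/6 mice without treatment, 3 aged animals of 22 months and 3 young animals of 3 months, which were perfused with PBS. A second experiment sequenced choroid plexus, the secretory epithelium of the brain ventricles with its stroma, from C57BL/6 mice in parabiosis, in which 2 animals are joined by surgery and share their blood. Its groups were young isochronic parabionts (3 months, n = 3), young heterochronic parabionts (3 months, n = 3), old isochronic parabionts (22 months, n = 3) and old heterochronic parabionts (22 months, n = 2); an isochronic partner has the same age and a heterochronic partner the other age. The title of the series concerns aging, type I interferon and the choroid plexus, and the comparisons ask how the class II genes stood with age and with the age of the partner.

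Class II molecules are pairs of an alpha and a beta chain that display peptides from endocytosed proteins to CD4+ T cells. H2-Aa and H2-Ab1 encode the chains of I-A, and H2-Eb1 encodes the beta chain of I-E; C57BL/6 mice carry a defective H2-Ea gene and show no I-E on their cells. Cd74 is the invariant chain, which blocks the groove and guides the pair to endosomes. H2-DMa and H2-DMb1 form H2-DM, the editor that exchanges the remnant of the invariant chain for peptides, and H2-Oa and H2-Ob form H2-O, an inhibitor of H2-DM that is known from B cells and thymic epithelium. Ciita is the coactivator that switches the other genes on; it binds no DNA itself but joins factors bound to the X and Y boxes of their promoters. B cells, dendritic cells and many macrophages carry class II constantly, and interferon gamma induces it in other cells.

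Promoter sequences are shown because the genes are known to be switched on together through these boxes. RefSeq windows of 250 bases before to 50 after the start (GRCm38.p6) were used for 6 of the 9 genes: H2-Aa, H2-Eb1, H2-DMa, H2-DMb1, H2-Oa and H2-Ob. No window of H2-Ab1, Cd74 or Ciita was used, so the counts below leave these genes out. Each line gives the 120 bases from -150 to -31 relative to the start, 5′ to 3′ on the strand of the gene. Capitals mark matches to GATTGG, the core of the Y box, on either strand; the letters CCAAT at the end of the H2-Eb1 line belong to a match on the opposite strand that runs 1 base past the window.
H2-Aa, chr17:34287854-34287973, minus strand: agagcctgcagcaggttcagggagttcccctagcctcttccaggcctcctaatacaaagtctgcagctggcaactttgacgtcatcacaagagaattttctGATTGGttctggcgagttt
H2-Eb1, chr17:34305717-34305836, plus strand: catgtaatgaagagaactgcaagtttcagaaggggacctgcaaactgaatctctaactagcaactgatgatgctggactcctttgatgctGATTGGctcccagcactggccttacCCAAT
H2-DMb1, chr17:34153041-34153160, plus strand: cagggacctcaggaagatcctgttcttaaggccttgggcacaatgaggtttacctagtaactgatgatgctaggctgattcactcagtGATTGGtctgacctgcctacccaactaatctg
H2-Oa, chr17:34092229-34092348, plus strand: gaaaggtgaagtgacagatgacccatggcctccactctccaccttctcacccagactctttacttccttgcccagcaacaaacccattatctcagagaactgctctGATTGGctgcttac
H2-Ob, chr17:34238755-34238874, plus strand: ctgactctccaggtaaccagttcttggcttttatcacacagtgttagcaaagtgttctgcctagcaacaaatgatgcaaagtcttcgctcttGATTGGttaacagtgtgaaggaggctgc

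In these 5 windows a GATTGG on the gene's strand began at -49 in H2-Aa, -60 in H2-Eb1, -62 in H2-DMb1, -44 in H2-Oa and -58 in H2-Ob. In H2-DMa a match was found only at the second of its listed starts, at -199. All 6 genes held GATTGG in the full window of some listed start, against 16.1% of 32851 RefSeq promoters of the same 300 bases. A gene was counted if any of its listed starts had a match, while the percentages here and below count promoter windows separately. H2-DMa, with more than a first start, thus had more chances to match, and the shares are not like for like. No line is shown for H2-DMa, so every line on display holds a match. Altogether 6 patterns were searched on both strands, 3 of them for the X box, which are not given here, and GATTGG was chosen for display after the matches were seen. Of the shorter and longer forms of the Y box, CCAAT was held by 6 of the 6 genes and 37.4% of promoters, and CTGATTGG by 3 and 4.1%. Both overlap GATTGG. CTGATTGG was formed by adding the 2 bases that stand before GATTGG in H2-Aa, so the match in H2-Aa was fixed in advance. A match is a description of the letters, not evidence of binding.

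Values are deposited signals, weighted reads per RefSeq transcript scaled by 1 factor per library, and depth ran from 187827 to 1134770 reads per tissue library and from 534663 to 992000 per parabiont library. Of 63 tissue libraries with a column, 56 were used. The 7 left out, from hippocampus, cervical and mesenteric lymph nodes, thymus, spleen, lung and liver of young mouse 2, held transcripts of other organs: lung had 32238 of Alb, the albumin of hepatocytes, against 22.9 and 12.1 in the other young lungs, and hippocampus had 237 of Cd79a, a subunit of the B cell receptor, against 0 and 0.607. The remaining groups held 3 aged and 3 young libraries in choroid plexus, colon and inguinal lymph nodes, 3 and 2 in bone marrow, hippocampus, lung, mesenteric lymph nodes, spleen and thymus, 2 and 2 in liver, and 3 and 1 in cervical lymph nodes. Epithelial markers of choroid plexus, among them Ttr, summed to 212993 to 274754 in the choroid plexus libraries and to at most 20490 in the libraries used from any other tissue. The tissues are whole organs or flushed marrow, so fewer cells of a type and less RNA per cell cannot be told apart.

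The class II genes were highest in spleen and lymph nodes and lowest in hippocampus or choroid plexus. Over both ages Cd74 had a mean value of 5414 ± 322 (SD, n = 5) in spleen, 3866 ± 487 (n = 5) in mesenteric, 3824 ± 634 (n = 4) in cervical and 3284 ± 1152 (n = 6) in inguinal lymph nodes. It then had 1698 ± 411 (n = 5) in lung, 1697 ± 502 (n = 5) in thymus, 834 ± 98.8 (n = 5) in bone marrow, 472 ± 278 (n = 4) in liver, 275 ± 69.2 (n = 6) in colon, 128 ± 119 (n = 6) in choroid plexus and 21.4 ± 10.8 (n = 5) in hippocampus. The libraries of neighbours in this order overlapped except at the steps from spleen to mesenteric lymph nodes, from thymus to bone marrow and from choroid plexus to hippocampus. H2-Aa, H2-Ab1 and H2-Eb1 followed nearly the same order, each with its lowest mean in hippocampus: 8.37 ± 5.95, 7.30 ± 3.92 and 6.47 ± 6.82 (SD, n = 5 for each).

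The genes of the H2-O inhibitor and Ciita were low outside lymphoid organs and lung, at 0 to 7.34 in single libraries of liver, colon, choroid plexus and hippocampus. H2-Oa averaged 95.2 ± 26.1 in spleen and 22.5 ± 1.92 in thymus (n = 5 each), and H2-Ob averaged 96.2 ± 23.8 in spleen and 9.76 ± 5.44 in thymus. In choroid plexus H2-Oa was at 0 in 5 of 6 libraries and H2-Ob in 4 of 6, where 1 read is worth about 1. Ciita averaged 144 ± 18.6 in spleen and 24.2 ± 11.8 in lung (n = 5 each), and in choroid plexus it was at 0 in 5 of 6 libraries. H2-DMb1 departed from the common order: its mean in choroid plexus, 33.0 ± 12.7 (n = 6), lay above that in liver (22.0 ± 12.3, n = 4), colon (9.84 ± 4.52, n = 6) and hippocampus (3.70 ± 3.96, n = 5), although the choroid plexus and liver libraries overlapped. H2-DMa departed too, with means of 13.1 in aged and 17.7 in young hippocampus. Its means were 8.47 and 12.6 in aged and young colon and 6.48 and 2.34 in aged and young choroid plexus. Its hippocampus and colon libraries overlapped.

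**Figure D1:**
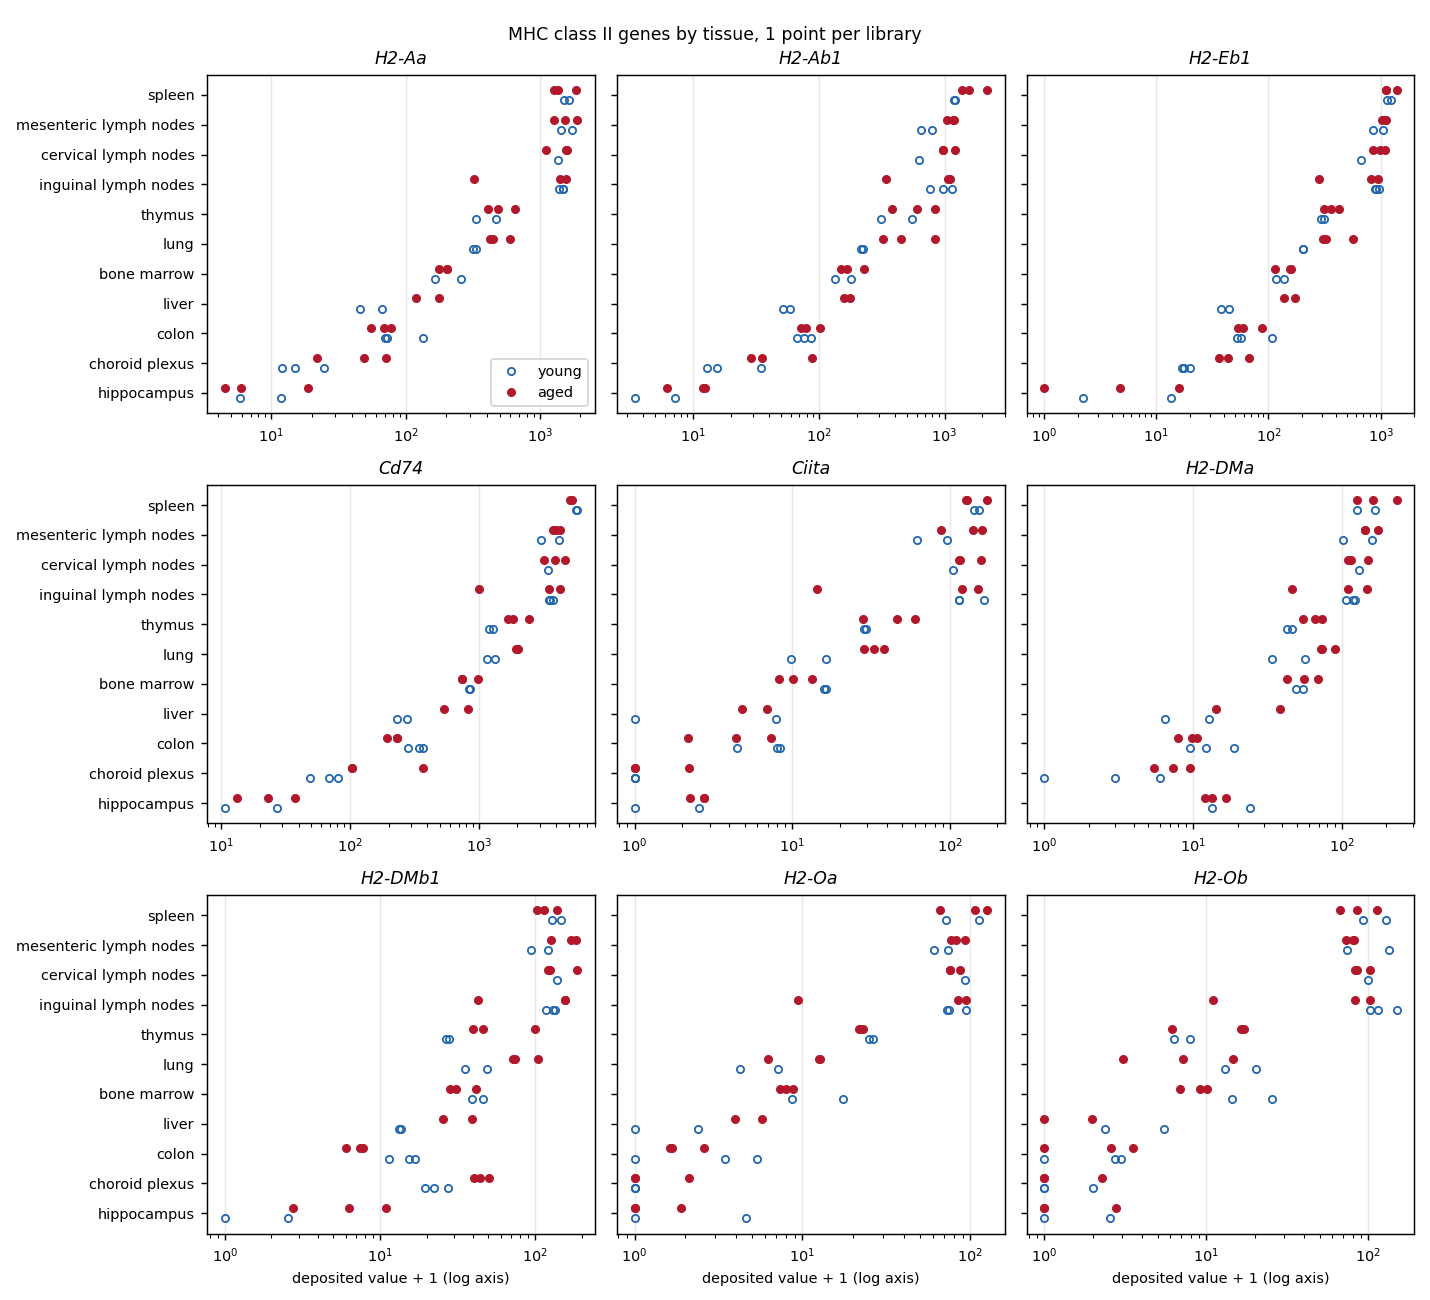
Each panel plots 1 gene, with the deposited value plus 1 on a log axis and 1 point per library in the 11 tissues (open blue, 3 months; filled red, 22 months). Spleen and lymph nodes lie at the right in all panels, 1 aged inguinal lymph node library lies to the left of its group, and H2-DMb1 is the panel in which choroid plexus lies to the right of colon.

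Change with age was tested within each tissue with limma on log2 values to which a pseudocount worth 1 read was added, so that fold changes of low genes are understated; a gene was tested where enough libraries exceeded 4 reads, and a call is a p under 0.05 after Benjamini-Hochberg adjustment over all genes tested. The labels name separate mice, and the same mice gave all tissues. With age 4 class II genes rose in liver and 1, H2-Eb1, rose in choroid plexus, and in no other tissue did a member pass.

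In aged liver the genes of I-A, the I-E beta chain and the invariant chain rose, with log2 changes of 1.40 to 1.90. H2-Eb1 was at 171 and 135 in the aged livers and at 43.1 and 37.0 in the young livers, a log2 change of 1.90 ± 0.29 (SE; limma, adjusted p = 0.00188). H2-Ab1 was at 159 and 175 against 58.0 and 50.8, a log2 change of 1.60 ± 0.28 (limma, adjusted p = 0.00689). Both aged livers lay above both young livers for these genes. Cd74 was at 834 and 543 against 232 and 278, a log2 change of 1.40 ± 0.28 (limma, adjusted p = 0.0222). H2-Aa was at 176 and 119 against 44.6 and 65.8, a log2 change of 1.40 ± 0.31, and only just passed (limma, adjusted p = 0.04998). Thus 4 of the 7 members tested were called higher, against 0.223% of the 9850 genes tested in liver.

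The genes of the editor did not pass in liver. H2-DMa was at 37.3 and 13.3 in aged against 11.9 and 5.49 in young livers (log2 change 1.34 ± 0.55, limma, adjusted p = 0.543). H2-DMb1 was at 38.3 and 24.6 against 12.6 and 12.3 (1.22 ± 0.42, limma, adjusted p = 0.42). The ages did not overlap for either gene, and across members 6 of 7 had both aged livers above both young, against 17.7% of all genes tested; 6 of 7 had an unadjusted p under 0.05, against 8.12%. Ciita was at 5.89 and 3.79 against 0 and 6.86, a few reads, and its ages overlapped. H2-Oa and H2-Ob were too low to be tested in liver.

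The calls in liver depend on the variance model and on the low-value settings: with a pseudocount at the smallest value above 0, with no filter, without a mean-variance trend, with young mouse 2 kept or in 1 fit over all tissues, 0 of the members were called, and with quantile normalization 3 were. The comparison holds 2 against 2 animals. Without aged mouse 1, which leaves 1 aged liver assumed to vary like the young, H2-Ab1 and H2-Eb1 still passed (1.67 and 1.73; limma, adjusted p = 0.00149 and 0.00176) but not Cd74 and H2-Aa. Markers of macrophages (11 genes, among them C1qa and Cd68) moved beside them: they summed to 3915 in aged mouse 1 and 1235 in aged mouse 3 against 1141 and 902 in the young livers. Of these markers 0 of 11 were called, while 10 of 11 estimates lay above 0 with a median of 1.26, against 1.40 for the members. An unadjusted limma p under 0.05 was reached by 7 of 11, among them Cd163, which had the 1 estimate below 0 (-1.02 ± 0.47). Markers of B cells summed to 21.4 and 32.9 against 10.3 and 28.2, with Pax5 and Fcer2a at 0 in all 4 livers. The part of these cells in the result was not tested.

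In choroid plexus 1 of the 6 members tested was called. H2-Eb1 was at 66.6, 35.4 and 42.5 in the aged mice 1, 2 and 3 and at 16.0, 16.6 and 18.8 in the young, a log2 change of 1.38 ± 0.28 (limma, adjusted p = 0.0093). The share of genes called higher in choroid plexus was 0.276% of 9776. H2-DMb1 was at 42.9, 39.1 and 49.8 against 21.5, 18.6 and 26.3, without overlap (0.96 ± 0.26, limma, adjusted p = 0.185). Cd74 was at 367, 104 and 103 against 47.9, 67.6 and 80.3, also without overlap (1.29 ± 0.59, limma, adjusted p = 0.826). Aged mouse 1 was far above the other aged mice for Cd74, and highest for the I-A genes and H2-Eb1 too.

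H2-Aa was at 70.4, 20.8 and 48.1 in aged against 14.0, 11.0 and 23.8 in young choroid plexus (1.35 ± 0.36, limma, adjusted p = 0.222). H2-Ab1 was at 87.1, 34.2 and 27.97 against 11.98, 14.5 and 33.9 (1.22 ± 0.42, limma, adjusted p = 0.593). In both genes 1 young library reached into the aged range. H2-DMa rested on 0 to 7 reads a library, 6.40, 8.55 and 4.48 against 2.00, 0 and 5.02 (1.36 ± 0.69, limma, adjusted p = 0.808). All 6 estimates lay above 0 with a median of 1.32, where the median of all genes tested was -0.01, and 3 of 6 had no overlap between the ages, against 5.29% of genes. An unadjusted p under 0.05 was reached by 4 of 6, against 6.06%. H2-Oa, H2-Ob and Ciita were too low to be tested.

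Without aged mouse 1 the estimate for H2-Eb1 in choroid plexus was 1.13 and no longer passed (limma, adjusted p = 0.172), and for Cd74 it was 0.68. The call on H2-Eb1 was also lost without the mean-variance trend and in 1 fit over all tissues (limma, adjusted p = 0.334 and 0.542). Macrophage markers summed to 487 in aged mouse 1, to 136 and 177 in the other aged mice and to 125 to 145 in the young. Adgre1 was at 0 in all 3 young libraries. Of the 6 markers tested 0 were called, while all 6 estimates lay above 0. They were 1.04 for Lyz2, 0.86 for C1qb, 0.68 for Tyrobp, 0.39 for C1qa, 0.29 for C1qc and 0.02 for Csf1r. Lyz2 and C1qb had an unadjusted limma p under 0.05, against 6.06% of genes. B cell markers summed to 2.44 to 6.15 in aged and 7.49 to 8.97 in young choroid plexus, with Ms4a1, Pax5 and Fcer2a at 0 in all 6 libraries. Dendritic cell markers summed to 6.19 to 9.15 in aged and 10.04 to 15.2 in young libraries, with Flt3 and Xcr1 at 0 in all 6. The share of macrophages in the rise of H2-Eb1 was not tested.

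In lung 0 of 9 members were called by limma (0.33% of 12115 genes were), yet 8 of 9 had an unadjusted p under 0.05, against 12.1% of genes, and 7 of 9 had every aged library above both young, against 16.1%. Cd74 was at 2024, 1968 and 1993 in aged lungs, above the 1169 and 1337 of the young, and the 3 aged lungs hardly differed among themselves (0.67 ± 0.16, limma, adjusted p = 0.0712). Ciita was at 31.9, 37.4 and 27.5 against 8.81 and 15.3 (1.39 ± 0.32, limma, adjusted p = 0.0712). H2-Ab1 was at 324, 453 and 837 against 225 and 215 (1.18 ± 0.32, limma, adjusted p = 0.189). H2-Ob had the opposite sign, at 13.6, 2.08 and 6.21 in aged and 19.4 and 12.1 in young lungs (-1.27 ± 0.55, limma, adjusted p = 0.365).

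The other estimates in lung were 0.92 ± 0.24 for H2-Eb1, 0.98 ± 0.26 for H2-DMb1, 0.84 ± 0.26 for H2-DMa, 0.56 ± 0.19 for H2-Aa and 0.87 ± 0.49 for H2-Oa, and none passed. Leaving out aged mouse 3 brought Cd74 past the threshold (limma, adjusted p = 0.0244), and leaving out aged mouse 1 did so for H2-Ab1 and H2-Eb1 (0.0124 and 0.0407). C1qb, a complement subunit made by macrophages, was 1 of 11 macrophage markers called in lung (1.64 ± 0.32, limma, adjusted p = 0.0314), and the estimates of 10 of the 11 lay above 0, with a median of 0.87, as for the members. Of the 11, 5 had an unadjusted limma p under 0.05, among them C1qa (0.83 ± 0.24), C1qc (1.06 ± 0.36), Cd68 (1.10 ± 0.28) and Aif1 (1.18 ± 0.48). Their summed level overlapped between the ages, at 5028 to 5566 in aged against 5081 and 5240 in young lungs, and Lyz2, the lysozyme of macrophages, was at -0.01 ± 0.14. Jchain and Mzb1, genes of antibody-secreting cells, rose in aged lung (4.03 ± 0.32 and 2.00 ± 0.31, limma, adjusted p = 1.24e-06 and 0.00451). Sdc1 and Prdm1, of the same list, did not pass, and Sdc1 had the opposite sign (-0.45 ± 0.21 and 0.40 ± 0.72, limma, adjusted p = 0.39 and 0.867). The part of macrophages and antibody-secreting cells in the class II values of lung was not tested.

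**Figure D2:**
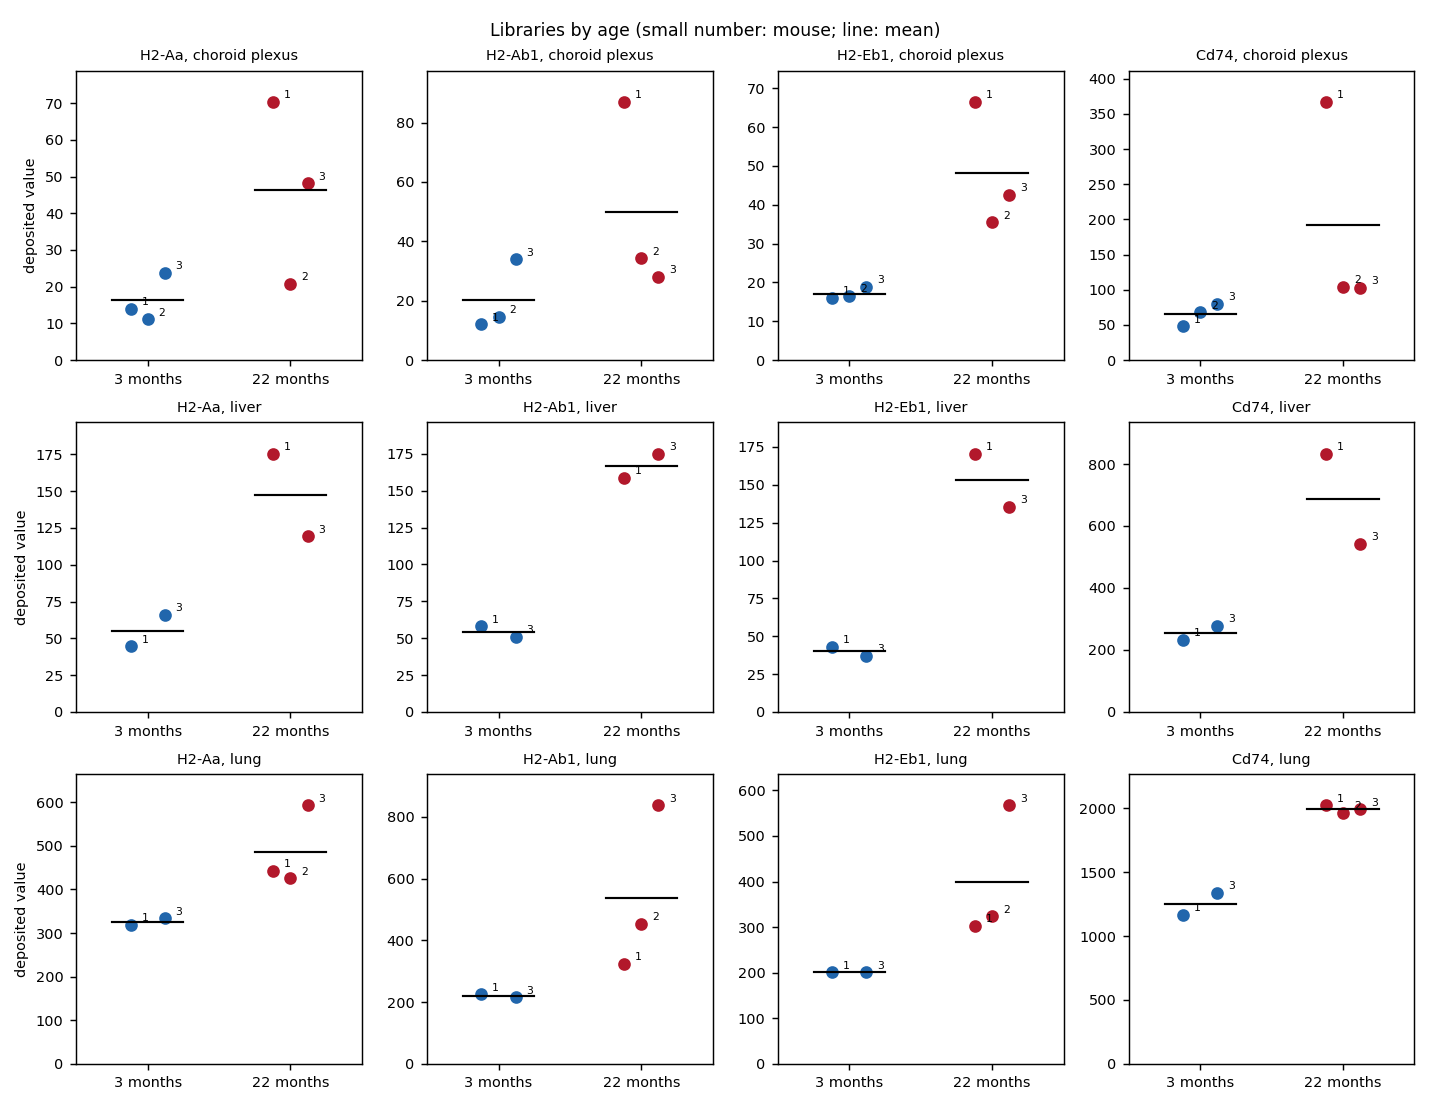
Deposited values of H2-Aa, H2-Ab1, H2-Eb1 and Cd74 (linear axes from 0) in choroid plexus, liver and lung at 3 and 22 months, with 1 point per library, its mouse number beside it and a line at the mean. Ages do not overlap in liver and lung, and aged mouse 1 stands above the other aged mice in choroid plexus.

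In thymus 0 of 9 members were called by limma, where 2.39% of 11081 genes were, and 3 of 9 had an unadjusted p under 0.05, against 14.6%. Cd74 was at 1838, 2464 and 1681 in aged and 1290 and 1213 in young thymus, without overlap (0.65 ± 0.19, limma, adjusted p = 0.0862). H2-DMb1 was at 45.0, 98.6 and 39.0 against 25.8 and 26.8 (1.06 ± 0.34, limma, adjusted p = 0.136). Without aged mouse 2, whose values were highest for both, the estimate for Cd74 was 0.49 and passed (limma, adjusted p = 0.0286). B cell markers rose in the same libraries: 5 of 8 tested were called, their 10 genes summed to 125, 263 and 201 in aged against 51.0 and 53.4 in young thymus, and aged mouse 2 was highest here too. Macrophage markers summed to 953 to 1738 in aged, again highest in mouse 2, against 699 and 792 in young thymus, and 1 of 11 was called higher. Markers of thymic epithelium summed to 806 to 884 against 708 and 733, with 0 of 7 called. Among them Aire had an estimate of -2.04 ± 0.60 (limma, adjusted p = 0.104), while the other estimates lay above 0, up to 0.61 ± 0.24 for Krt5. T cell markers summed to 2389 to 2818 against 3785 and 3838, with 2 of 9 called lower. The part of these cells in the class II values was not tested.

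In the remaining tissues 0 members were called. In bone marrow 0.0484% of 10325 genes were called, and 1 of 9 members, H2-Ob, had an unadjusted limma p under 0.05, against 6.62% of genes: it was at 8.17, 9.10 and 5.87 in aged against 24.5 and 13.4 in young marrow (-1.16 ± 0.42, adjusted p = 0.646). B cell markers summed to 196 to 303 in the same aged libraries against 391 and 515 in the young: 8 of 8 tested had an estimate below 0, 4 of 8 had an unadjusted p under 0.05 and 0 were called (limma), and their part in the H2-Ob values was not tested. In spleen 0.557% of 10587 genes were called and 1 of 9 members, H2-Ab1, had such a p, against 10.6%: it was at 1379, 2176 and 1569 against 1205 and 1191 (0.48 ± 0.18, limma, adjusted p = 0.347). Cd74 went the other way, also without overlap, at 5109 to 5273 in aged against 5667 and 5842 in young spleen (-0.15 ± 0.13, limma, adjusted p = 0.733). Ctsb, the endosomal protease cathepsin B, was the 1 gene of 11 for class II peptide processing and turnover that rose in spleen (0.81 ± 0.19, limma, adjusted p = 0.0472), and 0 of 11 passed in thymus and lung and 0 of 10 in choroid plexus and liver.

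In mesenteric lymph nodes 0.102% of 10834 genes were called, and 3 of 9 members had an unadjusted limma p under 0.05, against 7.33%. H2-Ab1 was at 1036, 1175 and 1179 in aged against 792 and 648 in young nodes (0.65 ± 0.22, limma, adjusted p = 0.393). In cervical lymph nodes 0.106% of 10365 genes were called, and 2 of 9 members had such a p, against 7.33%. There H2-Ab1 was at 975, 977 and 1206 in the aged mice against 627 in the 1 young library, whose spread is assumed to equal that of the aged (0.74 ± 0.24, limma, adjusted p = 0.368).

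In inguinal lymph nodes all 9 estimates lay below 0, 0 of 9 had an unadjusted limma p under 0.05, against 4.52% of 9703 genes, and 0% of all genes were called. Aged mouse 3 stood low: Cd74 was at 4316, 3544 and 1015 in aged nodes against 3503, 3568 and 3759 in young ones, and B cell markers summed to 292 in aged mouse 3 against 1554 to 1872 in the other 5 libraries. Without it 7 of the 9 estimates lay above 0, and that for Cd74 was 0.12 in place of -0.53.

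In colon 6 of 7 estimates lay below 0, 0 were called by limma (0.125% of 11190 genes were), and 2 of 7 had an unadjusted p under 0.05, against 11.5%. Cd74 was at 194.5, 231.0 and 231.1 in aged against 341, 281 and 371 in young colon, without overlap (-0.59 ± 0.19, limma, adjusted p = 0.243). H2-DMb1 was at 5.09, 6.40 and 6.80 against 14.5, 15.9 and 10.4, also without overlap (-1.05 ± 0.37, limma, adjusted p = 0.296). B cell markers summed to 7.63 to 19.99 in aged and 17.1 to 37.8 in young colon, and their part was not tested. In hippocampus 0 of 6 members were called (0.109% of 10971 genes) or had an unadjusted limma p under 0.05 (6.54%), and Cd74 was at 12.2, 22.2 and 36.3 in aged against 26.3 and 9.71 in young libraries.

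**Figure D3:**
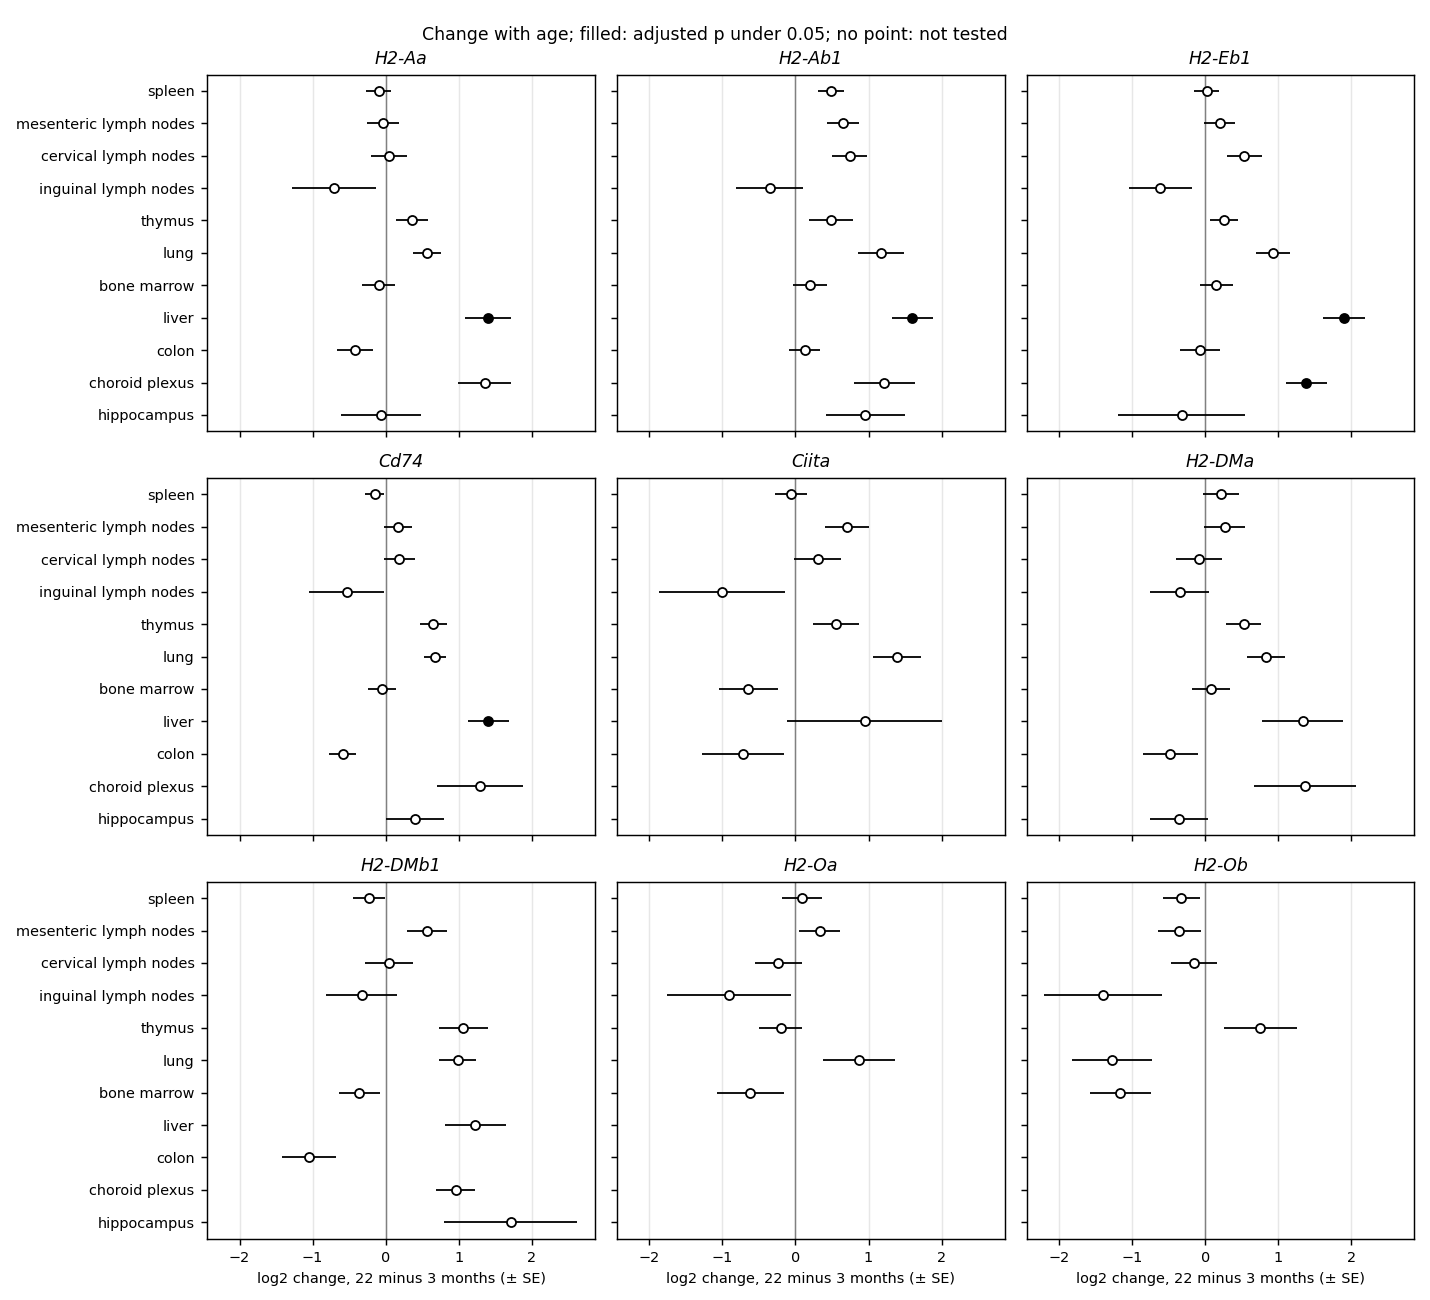
Each panel shows for 1 gene the log2 change from 3 to 22 months with its standard error in every tissue where it was tested; filled points passed an adjusted p of 0.05. The 5 filled points are H2-Eb1 in liver and choroid plexus and H2-Aa, H2-Ab1 and Cd74 in liver.

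Seen gene by gene, H2-Ab1 had the most estimates of 1 sign: its estimate lay above 0 in 10 of 11 tissues, from -0.35 in inguinal lymph nodes to 1.60 in liver. H2-Aa, its partner chain, lay above 0 in 5 of 11. H2-Ob lay below 0 in 6 of the 7 tissues where it could be tested, and H2-Oa, its partner, in 4 of 7. H2-DMb1 was the 1 member of 9 whose age effect differed between tissues in a model of all tissues with the mouse as a term (limma F test, adjusted p = 0.0228, against 0.405% of 16053 genes called). In the separate fits per tissue, which have no mouse term, its estimate ran from -1.05 in colon to 1.71 in hippocampus. The latter rests on 2 to 8 reads in the aged and 0 and 1 read in the young libraries. For the other 8 members the adjusted p of that test ran from 0.241 (H2-DMa) to 0.727 (H2-Oa). The age effect in choroid plexus minus the mean of the other tissues lay above 0 for 9 of 9 members, and 0 passed (limma, against 0.299% of genes). For H2-Oa, H2-Ob and Ciita (0.42, 0.54 and 0.15) the sign says little about choroid plexus, where they were too low to be tested. An unadjusted p under 0.05 was reached by 3 members, against 8.29% of genes: it was 1.24 ± 0.51 for H2-Aa, 1.13 ± 0.41 for H2-DMa and 1.07 ± 0.44 for Cd74.

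The balance between the chains of a pair was compared within libraries. Within a library the ratio of H2-Ab1 to H2-Aa needs no scaling between libraries, and its mean was higher in the aged mice in 10 of 11 tissues, with a median difference of 0.55 on the log2 scale. In spleen the log2 ratio was 0.11 to 0.24 in the aged and -0.46 and -0.33 in the young mice, and in mesenteric lymph nodes it was -0.87 to -0.11 against -1.16 and -1.14. Choroid plexus was the exception, with -0.78 to 0.72 against -0.22 to 0.51. Averaged over the tissues of each mouse, after centring each tissue on the midpoint of its aged and young means, the ratio was 0.08 to 0.35 in the 3 aged and -0.34 to -0.08 in the 3 young mice, a difference of 0.42. Young mouse 2 entered only through bone marrow, choroid plexus, colon and inguinal lymph nodes. The exact two-sided permutation test over the 6 mice gave p = 0.1, the smallest that 3 against 3 allows (adjusted p = 0.25 over 5 ratios), and the difference was 0.37 to 0.51 with any 1 tissue left out. Exact means here and below that every split of the mice was counted. The centres used the true ages and were not redone for each split, so with unequal groups each such p is approximate.

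The ratio of H2-Ob to H2-Oa went the other way, with lower means in aged mice in 5 of the 7 tissues that had at least 3 reads of both genes. It was -0.24 to 0.36 in aged against 0.58 and 0.81 in young bone marrow, and its mean was higher in aged thymus, where it was -2 to -0.39 against -2.23 and -1.78, with overlap. Over mice the difference was -0.43 (exact two-sided permutation test, p = 0.1, adjusted p = 0.25). It moved with the tissues used: it was -0.25 without lung (exact permutation p = 0.3) and -0.39 without mesenteric lymph nodes (exact permutation p = 0.2), with overlap between aged and young mice in both cases, and -0.67 without thymus (exact permutation p = 0.1). The ratios of H2-Eb1 and of Cd74 to H2-Aa differed by 0.17 and 0.08 (exact permutation p = 0.2 and 0.3; adjusted p = 0.333 and 0.375), and the ratio of H2-DMb1 to H2-DMa by -0.07 (exact permutation p = 0.7, adjusted p = 0.7). These ratios were formed after the values had been seen.

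**Figure D4:**
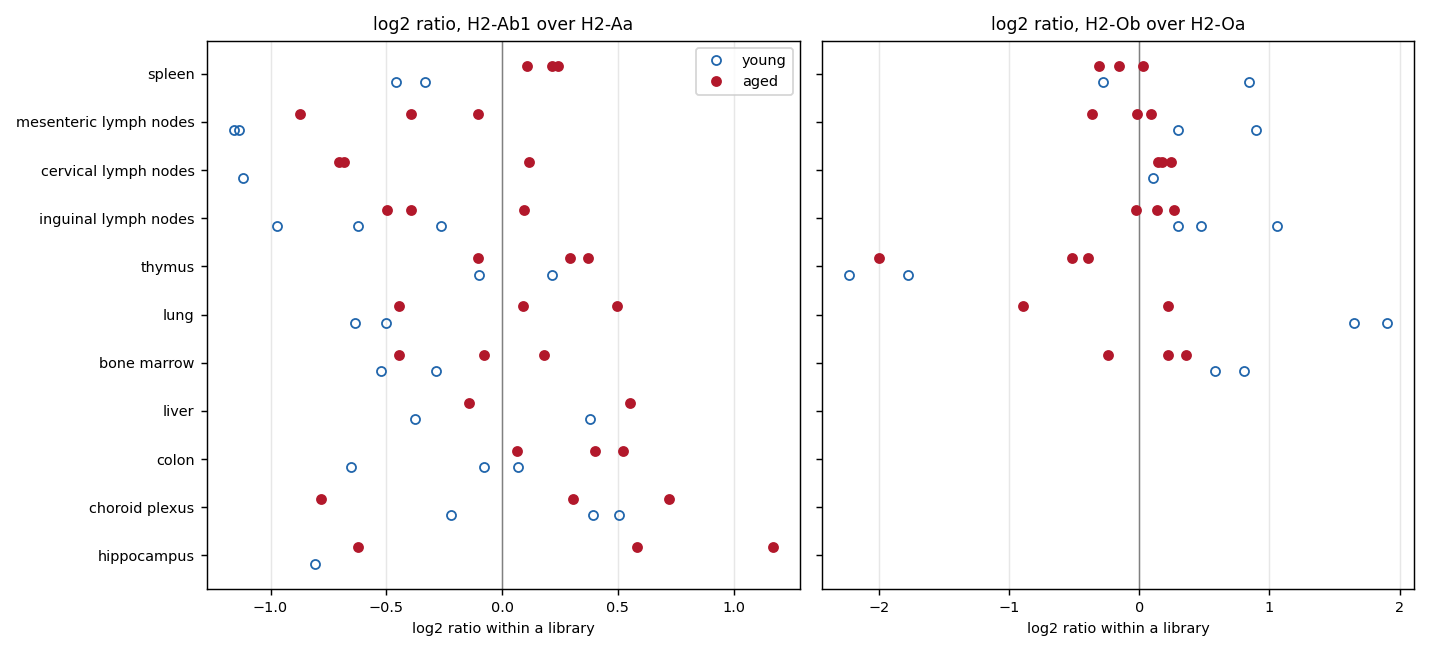
The log2 ratio of H2-Ab1 to H2-Aa (left) and of H2-Ob to H2-Oa (right) within each library, by tissue (open blue, 3 months; filled red, 22 months); libraries with under 3 reads of either gene are not drawn. Aged points lie to the right of young points in spleen and mesenteric lymph nodes at the left, and to their left in bone marrow and lung at the right.

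In the choroid plexus of parabionts 7 of 9 members could be tested, and in none of the 5 comparisons was 1 called by limma. Between old and young isochronic parabionts 3 of 7 estimates lay above 0 and 4 below, with a median of -0.01. H2-Aa was at 86.5, 96.3 and 66.3 in old and 85.6, 72.0 and 82.5 in young isochronic parabionts, a difference of 0.04 ± 0.31 (limma, adjusted p = 1). Cd74 was at 98.1, 129 and 90.0 against 118, 96.3 and 99.0 (0.01 ± 0.15), and H2-Eb1 was at 49.998, 77.6 and 39.1 against 52.6, 50.1 and 59.4 (-0.01 ± 0.47). The groups overlapped in these 3 genes. H2-DMb1 was the 1 member of 7 with an unadjusted p under 0.05 (5% of 13330 genes), at 62.5, 65.6 and 70.9 against 63.4, 45.0 and 49.5 (0.34 ± 0.14, limma, adjusted p = 0.829); 0.188% of genes were called. Unpaired and isochronic mice came from separate experiments, and their age effects were not tested against each other.

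Young mice joined to an old partner had lower estimates for most members than young mice joined to a young one, and none passed. Cd74 was at 81.1, 60.8 and 95.6 in young heterochronic parabionts 9, 14 and 11, all below the 96.3 to 118 of the young isochronic group (-0.41 ± 0.15, limma, adjusted p = 0.676). H2-Aa was at 54.5, 29.9 and 79.5 (-0.64 ± 0.31, limma, adjusted p = 0.809), and H2-Ab1 was at 38.3, 25.9 and 58.4 against 68.1, 54.0 and 56.1 (-0.60 ± 0.22, limma, adjusted p = 0.698). Parabiont 14 was the lowest in each of these genes, and its macrophage markers summed to 222 against 338 and 339 in its group and 319 to 438 in young isochronic parabionts; their part was not tested. Altogether 6 of 7 estimates lay below 0, 2 of 7 had an unadjusted p under 0.05 (6.46% of genes), 1 of 7 had no overlap (5.63%), and 0% of genes were called.

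Between old mice joined to a young partner and old isochronic parabionts the values overlapped for 7 of 7 members, and none passed. H2-Ab1 was at 63.0 and 82.8 against 51.0, 64.8 and 41.8 (0.48 ± 0.25, limma, adjusted p = 0.598), and Cd74 was at 109 and 140 against 98.1, 129 and 90.0 (0.24 ± 0.17, limma, adjusted p = 0.705). Here 6 of 7 estimates lay above 0 and that of H2-DMb1 below (-0.07 ± 0.15), 0 of 7 had an unadjusted p under 0.05 (8.89% of genes), and 0% of genes were called. Against young heterochronic parabionts, the old heterochronic group lay higher for 7 of 7 members, with no overlap for Cd74, H2-Aa and H2-Ab1 (3 of 7, against 11% of genes). The differences were 0.66 ± 0.17 for Cd74, 0.99 ± 0.35 for H2-Aa and 0.88 ± 0.25 for H2-Ab1 (limma, adjusted p = 0.14, 0.497 and 0.238), and 3 of 7 had an unadjusted p under 0.05 (8.31%) where 0.143% of genes were called. Without parabiont 11 the 3 passed (0.81, 1.31 and 1.17; limma, adjusted p = 0.0386, 0.00741 and 0.00429).

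Between the heterochronic groups, 0 of 10 processing genes, 0 of 7 transcription factors and 0 of 6 costimulation genes passed (limma). The interaction of age and partner was 0.66 ± 0.22 for Cd74 and 1.07 ± 0.33 for H2-Ab1 (limma, adjusted p = 0.706 and 0.676); 2 of 7 members had an unadjusted p under 0.05 (6.36%), and 0% of genes were called. These comparisons share their groups with one another, so they are not independent. The highest value in the table of parabionts equals 993 reads, and the members reached at most 151. Epithelial markers of choroid plexus summed to 2672 to 3805 in parabionts, against 212993 to 274754 in unpaired choroid plexus. The log2 ratio of Cd74 to H2-Aa was 0.18 to 1.02 in parabionts and 1.10 to 2.61 in unpaired choroid plexus. Whether high values were limited in the parabionts, also for the members, was not tested.

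**Figure D5:**
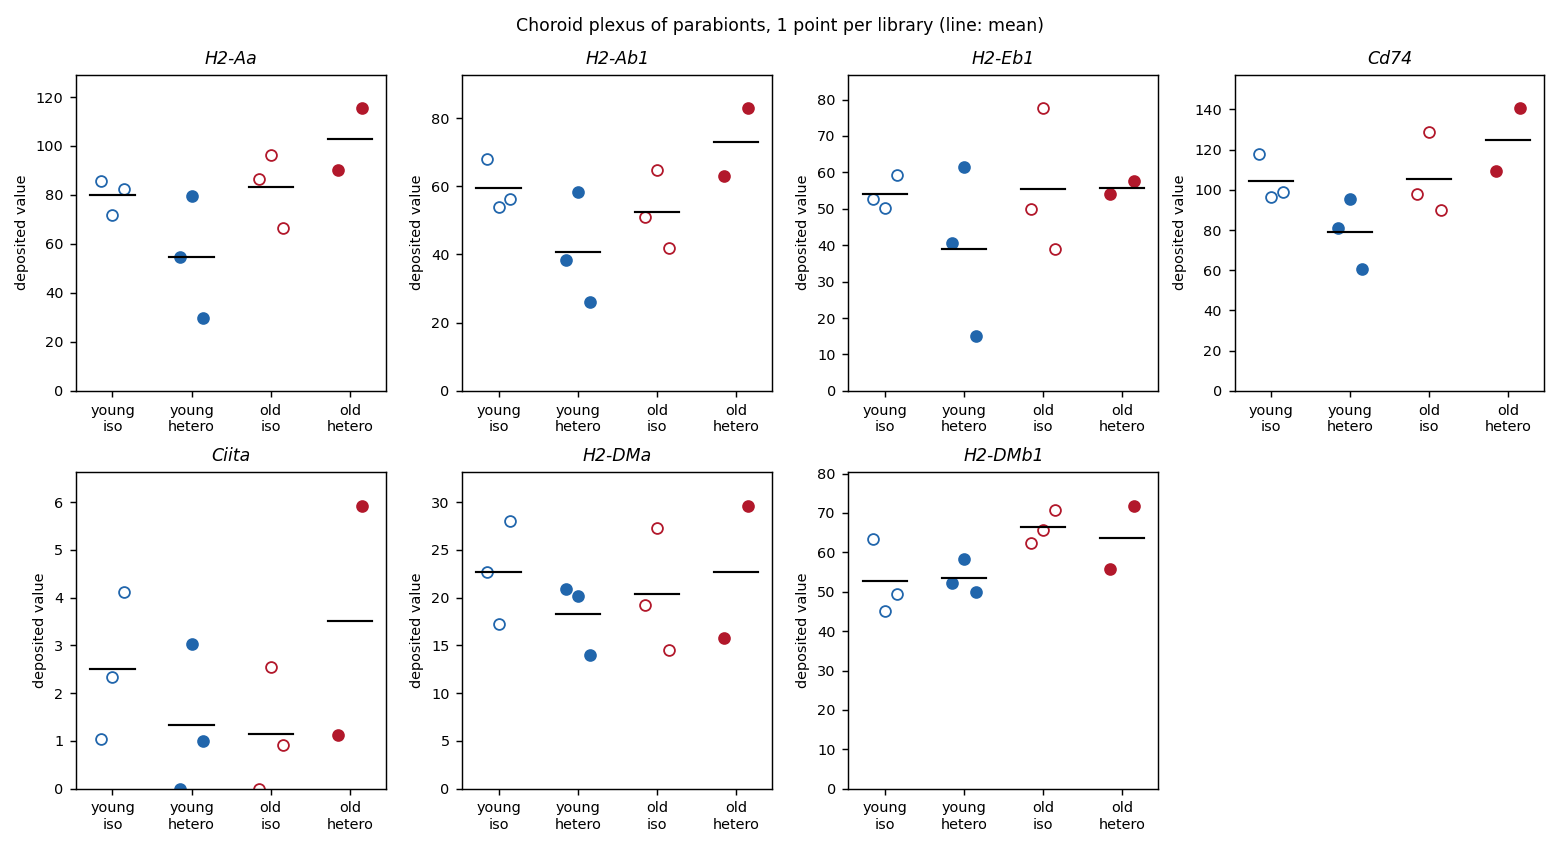
Deposited values (linear axes from 0) of the 7 members tested in choroid plexus of the 4 parabiosis groups, 1 point per library, with a line at the mean (blue, young; red, old; open, isochronic; filled, heterochronic). Young heterochronic parabionts hold the lowest library for H2-Aa, H2-Ab1, H2-Eb1, Cd74 and H2-DMa.

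Over the 56 tissue libraries, the 5 other genes whose log2 values were most like the mean of 6 members, all but H2-Oa, H2-Ob and Ciita, were H2-DMb2 (Pearson's r = 0.966), Gimap3 (0.962), Ccl5 (0.962), Ifi205 (0.950) and Nlrc5 (0.949). H2-DMb2 is the near copy of H2-DMb1, Ccl5 is a chemokine, and Nlrc5 is the relative of Ciita that switches on MHC class I. Among members, H2-Aa, Cd74, H2-Ab1 and H2-Eb1 followed the mean of the others with r of 0.976 to 0.988, and H2-DMa and H2-DMb1 with 0.842 and 0.879. The 3 members outside the mean followed it with 0.915 (H2-Oa), 0.895 (H2-Ob) and 0.935 (Ciita). Over the 11 parabiont libraries the 5 genes most like the mean of the 7 members tested there were Cpxm1 (0.943), Cd72 (0.920), Tyrobp (0.911), Ctss (0.908) and BC021767 (0.907). Tyrobp is a signalling adaptor of macrophages and other myeloid cells, and Ctss is the cathepsin that cuts the invariant chain; in the same libraries H2-DMb1 followed the other members with an r of only 0.417. The libraries share mice, tissues and depth, so these values are descriptions.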

How the data were processed

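The submitters' processing notes name TopHat and the mm9 build; how reads were counted and scaled, and with which versions, is not given in the sources used here. RNA came from the miRNeasy kit for 10 organs and the RNA MicroPrep kit for all choroid plexus, per the labels. Deposited values are a signal that looks, from its steps, like weighted reads per RefSeq transcript divided by 1 factor per library. Of the values above 0, 77.0% to 84.7% in tissues and 84.5% to 86.1% in parabionts lay within 0.001 of whole reads, so counts were not recovered and the count test planned for them was not used. The deposited transcript with the highest mean was kept per gene; H2-DMb1 and H2-DMb2 are near-identical copies whose reads may be split.

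Of 75 listed samples 74 had a column; 1 column matched none of them and was not used, and 7 libraries of young mouse 2 were left out by the rule that names the members. limma 3.58.1 in R 4.3.3 (trend and robust settings) was fitted per tissue, and over all 4 parabiosis groups together, on log2(value + pseudocount). The pseudocount was worth 1 read, 0.834 to 1.41 in single tissues, and genes were tested that exceeded 4 times it in as many libraries as the smaller group (at least 2). This pseudocount was taken in place of a much smaller one used in an earlier analysis of these data, with the results of that analysis known, and the smaller one is kept as an alternative. The members and lists were likewise chosen with earlier results of these data known. Named beside the members are up to 4 genes of each other list with the smallest p, and the 5 most like genes. The script was tested on simulated data. Depth limits precision: each p measures the spread between these mice. Ratios, figures and sequences were made in Python 3.11.15 with pandas 2.3.3 and matplotlib 3.10.9. Results for 1 list of related genes are not reported here.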

Additional observations from a re-analysis of the deposited data

Results flagged for a closer look

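The age effect of H2-DMb1 differed between the 11 tissues (limma F test over the interaction of tissue and age, adjusted p = 0.0228). In the separate fits per tissue, which have no mouse term, its estimate lay above 0 in 7 tissues and below 0 in 4, from 1.71 ± 0.91 (SE) in hippocampus and 1.22 ± 0.42 in liver to -1.05 ± 0.37 in colon. The value in hippocampus rests on few reads, 2 to 8 in the aged and 0 and 1 in the young libraries. The adjusted p was 0.075 with the small pseudocount, 0.0906 without the trend, 0.882 with young mouse 2 kept and 0.052 without young choroid plexus 2.

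The 7 libraries of young mouse 2 left out of the comparisons held class II values above those of the other young mice for 9 of 9 members in hippocampus, liver and thymus, and for 0 of 9 in cervical and mesenteric lymph nodes, lung and spleen. In hippocampus the values were 1889 for Cd74, 68.3 for Ciita, 917 for H2-Aa, 603 for H2-Ab1, 70.1 for H2-DMa, 63.5 for H2-DMb1, 503 for H2-Eb1, 31.1 for H2-Oa and 55.9 for H2-Ob, where the other young libraries had 9.71 and 26.3 for Cd74. In liver they were 842 for Cd74, 12.5 for Ciita, 327 for H2-Aa, 300.3 for H2-Ab1, 30.4 for H2-DMa, 27.1 for H2-DMb1, 228 for H2-Eb1, 15.8 for H2-Oa and 6.6 for H2-Ob, where the other young livers had 232 and 278 for Cd74. In thymus they were 2327 for Cd74, 39.3 for Ciita, 812 for H2-Aa, 575 for H2-Ab1, 78.3 for H2-DMa, 57.8 for H2-DMb1, 609 for H2-Eb1, 37.8 for H2-Oa and 45.3 for H2-Ob, where the other young libraries had 1213 and 1290 for Cd74. In the same libraries Cd79a stood at 237 in hippocampus and 122 in thymus, and Cd3e, a T cell receptor subunit, at 191 in liver against 1.49 and 6.86 in the other young livers. Because these libraries hold transcripts of other organs, no comparison between ages was drawn from them.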

How the results depend on the processing

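Of the counts of members called, 184 of 208 under an alternative were within 1.5 times the reported one, where 0 against 0 counts as within. Only liver, choroid plexus and the difference between tissues had a reported count above 0, and each fell to 0 under several settings. In liver, reported at 4, the count was 0 with the small pseudocount, with no filter, without the trend, with young mouse 2 kept and in 1 fit over all tissues, and 2 to 4 with 1 library left out. In choroid plexus, reported at 1, it was 3 with no filter, 0 without the trend, 0 in 1 fit over all tissues, and 0 to 3 with 1 library left out. In hippocampus it was 1 in the fit over all tissues (H2-DMb1) against 0 reported. With 1 library left out it was 0 to 2 in lung, 0 to 1 in thymus, 0 to 3 for old against young heterochronic parabionts and 0 to 1 for choroid plexus against the other tissues. For the difference between tissues, reported at 1, it was 0 with the small pseudocount, 0 without the trend, 0 with young mouse 2 kept and 0 to 1 with 1 choroid plexus library left out. The cause of these moves was not tested, apart from fewer samples where a library is left out. Of 1515 values of members under alternatives, 82 had the other sign, 8 of them among the 795 values reported at 0.5 or more in size, and none of these belonged to a call; quantile normalization moved 4 of 133 to the other sign. By Spearman's rho, 3 of the 5 most like genes were shared in tissues and 1 of 5 in parabionts. Labels give aged and young mice the same replicate numbers, but deviations of same-numbered libraries correlated at only -0.218 to 0.0186 in choroid plexus, colon and inguinal lymph nodes, so the numbers were not taken as pairs; with the replicate block the count was 2 in choroid plexus, 4 in liver and 1 in thymus (Cd74). No block could be fitted in cervical lymph nodes. Depth limits H2-Oa, H2-Ob and Ciita most, which rest on 0 to 10 reads a library in liver, colon, choroid plexus and hippocampus, and on 2 to 49.25 in lung.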

Other observations

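The balance of the genes of H2-DM was compared between tissues after the values had been seen. The log2 ratio of H2-DMb1 to H2-DMa was 2.19 to 3.48 in the 3 aged choroid plexus libraries and 2.39 in the 1 young library with at least 3 reads of both genes. In the other tissues with a value it ran from -1.32 in bone marrow to 1.17 in liver. In the choroid plexus of the 11 parabionts, sequenced apart, the log2 ratio was 0.82 to 2.29: 10 of the 11 values lay below the lowest of the 4 unpaired choroid plexus libraries, and 1 lay below the highest liver value. The aged choroid plexus ratios rest on 4 to 7 reads of H2-DMa, the genes differ in length, and no test was made.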
